A study of Gnathonemus petersii with 18 samples.

Results

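The genes slc18a3, mnx1, lhx3, lhx4, tbx3, ache and prima1 were followed through trigeminal ganglion, cerebellum and spinal cord of Gnathonemus petersii, the elephantnose fish, which finds its way with weak electric discharges. They were chosen by their symbols in the deposited gene table, with earlier results of these data known. They make up 7 of its 28031 genes, and all 7 passed the filter on low counts that left 20691 genes. Each symbol occurs in the table as given here. Further copies that fish genomes often hold may stand in it under locus numbers alone, so reads shared with a near-identical copy were not examined.

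Acetylcholine is the transmitter with which vertebrate motor neurons drive muscle, and in mormyrid fish spinal electromotor neurons use it to drive the electric organ of the tail. A cholinergic neuron makes acetylcholine with choline acetyltransferase (chat), loads it into vesicles with the vesicular acetylcholine transporter (slc18a3) and takes choline back up with slc5a7. Acetylcholinesterase (ache) ends the signal, and in mammalian brain the membrane anchor encoded by prima1 holds that enzyme at the cell surface. The homeodomain factor mnx1 and the LIM homeodomain factors lhx3 and lhx4 set motor neuron identity in mouse and chick embryos, and lhx3 and lhx4 also act in V2 interneurons and the pituitary. The T-box repressor tbx3 is best known from limb, heart and mammary gland development.

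RNA was sequenced from 3 tissues with 6 libraries each, 18 in all, taken per the labels from 6 individual fish with no treatment named. The labels give neither age, sex nor strain, nor the level of the spinal cord that was sampled. The brain libraries are labelled as cerebella. The series title concerns the early origin of fine touch, and the 3 comparisons below set each pair of tissues against each other.

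Total gene counts ran from 10413024 to 14183733 in the ganglion, from 10953416 to 17587837 in the cerebellum and from 10346375 to 13379441 in the spinal cord. The tissue labels were checked against marker genes. Summed over 9 sensory ganglion markers the level was 823.3 to 1210 TPM in ganglion libraries, 42.7 to 48.7 in cerebellum and 150.5 to 190.6 in spinal cord. Of these, ntrk2 was lowest in ganglion, at a mean of 19.8 TPM against 42.2 in cerebellum and 40.4 in spinal cord. Summed over 12 cerebellar neuron markers the level was 7950 to 11844 TPM in cerebellum and at most 364.6 elsewhere. Of the 12, 10 were called lower in ganglion than in cerebellum and 2, calb1 and skor2, higher. One more, cbln1, was at a mean of 18.8 TPM in spinal cord against 5.88 in cerebellum. Over 9 markers of spinal position and inhibitory neurons the sum was 849.4 to 1090 TPM in spinal cord, 317.2 to 479.2 in cerebellum and 0.971 to 5.92 in ganglion. Skeletal muscle was present unevenly. Without the myoglobin gene mb, which was at 634.7 TPM or more in all libraries, the other 12 muscle markers summed to 4589 TPM in ganglion replicate 1 and 41.2 to 241.2 in the other ganglion libraries. In spinal cord they summed to 1904, 1674 and 1862 TPM in replicates 1, 3 and 5 and to 203.1 to 466.7 in the other 3, and in cerebellum to 14.4 to 24.8, with 2 of the markers at 0 there. In the libraries with the largest sums, most was acta1. It was at 1783, 1546 and 1609 TPM in spinal cord replicates 1, 3 and 5 and at 3782 TPM in ganglion replicate 1. In ganglion replicates 2, 3 and 5 acta1 was at 30.5, 4.68 and 9.27 TPM, and in cerebellum at 1.40 TPM or less. Not every marker followed it: tnnt1 was at 11.1 to 17.9 TPM in all spinal cord libraries, and ryr1 was highest in cerebellum, at a mean of 1.40 TPM.

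Levels within a gene are given as CPM, counts relative to the TMM-scaled library size, and levels between genes as TPM, which is corrected for gene length. Calls needed an adjusted p under 0.05 by edgeR's quasi-likelihood test together with a change of at least 2-fold. Each log2 fold change is followed by its approximate standard error. In bulk tissue, fewer cells of a type and less RNA per cell cannot be told apart.

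The 7 genes were chosen with earlier results of these data known, so the shares of all genes below are background and no test of the 7. In the spinal cord all 7 genes were higher than in the cerebellum, where 28.9% of all genes tested were called higher and 16.3% lower. Between ganglion and spinal cord 6 of the 7 were lower in the ganglion and 1, tbx3, was higher, against 17.3% of all genes lower and 14.5% higher. Between ganglion and cerebellum 4 were higher in the ganglion (lhx3, tbx3, ache and prima1) and 0 were lower, against 29.6% and 22.3% of all genes. At an unadjusted threshold of 0.05 in edgeR 1 gene, slc18a3, was lower in the ganglion, and DESeq2 and limma on log2(TPM + 0.1) called it lower. The median log2 fold change of the 7 was 4.36 for spinal cord over cerebellum, -1.94 for ganglion over spinal cord and 1.35 for ganglion over cerebellum, or 1.05 with genes that have no count set to their bound. The value of 1.35 is that of lhx4, from 1 ganglion count against 0 counts in cerebellum. The medians over all genes tested were 0.08, -0.0063 and 0.07. The comparisons share libraries, so their values are set side by side and not correlated.

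**Figure D1:**
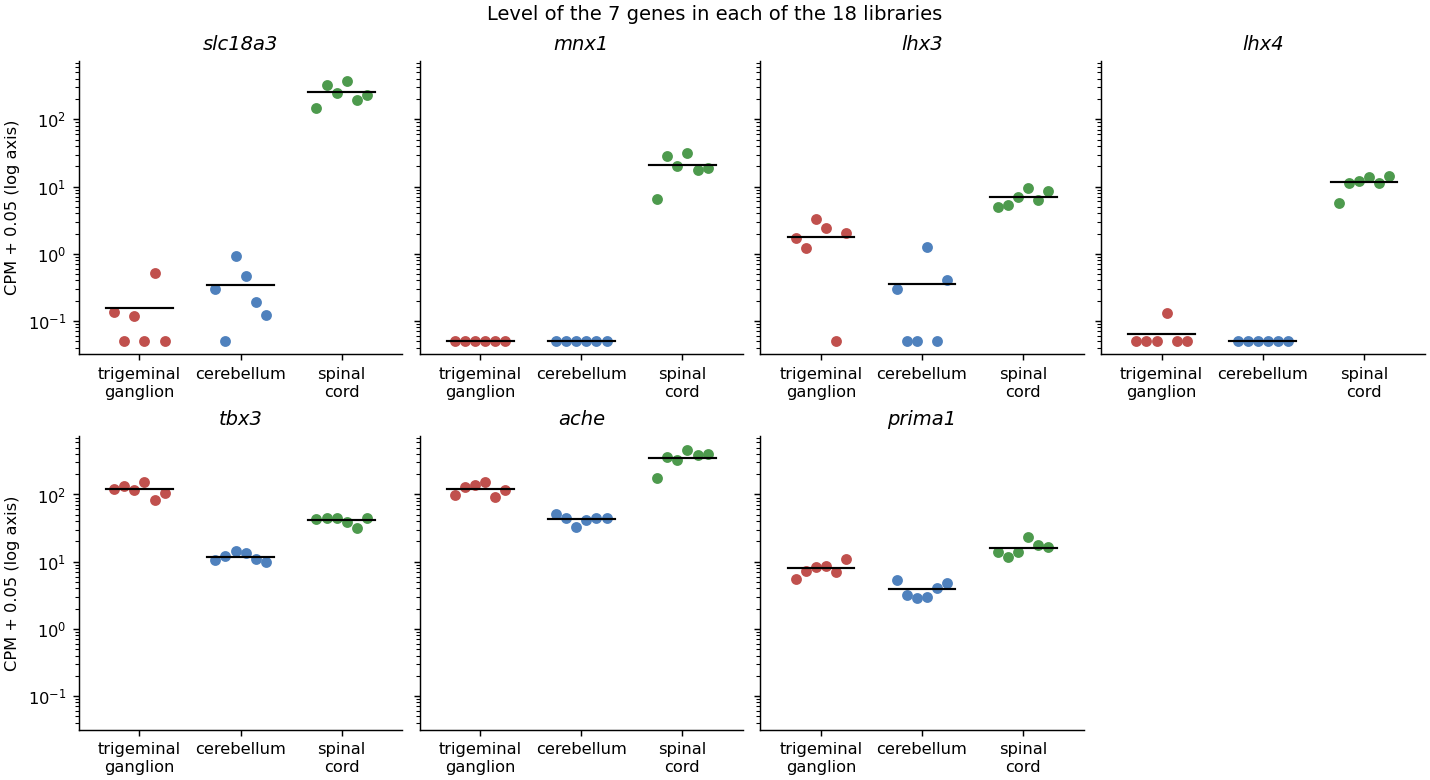
Level of each gene in each library: CPM plus 0.05 on a log axis, 1 point per library, in replicate order within a tissue, with the mean as a bar. slc18a3, mnx1 and lhx4 are near or at the bottom of the axis in ganglion and cerebellum and high in all 6 spinal cord libraries, while tbx3 is highest in the ganglion.

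**Figure D2:**
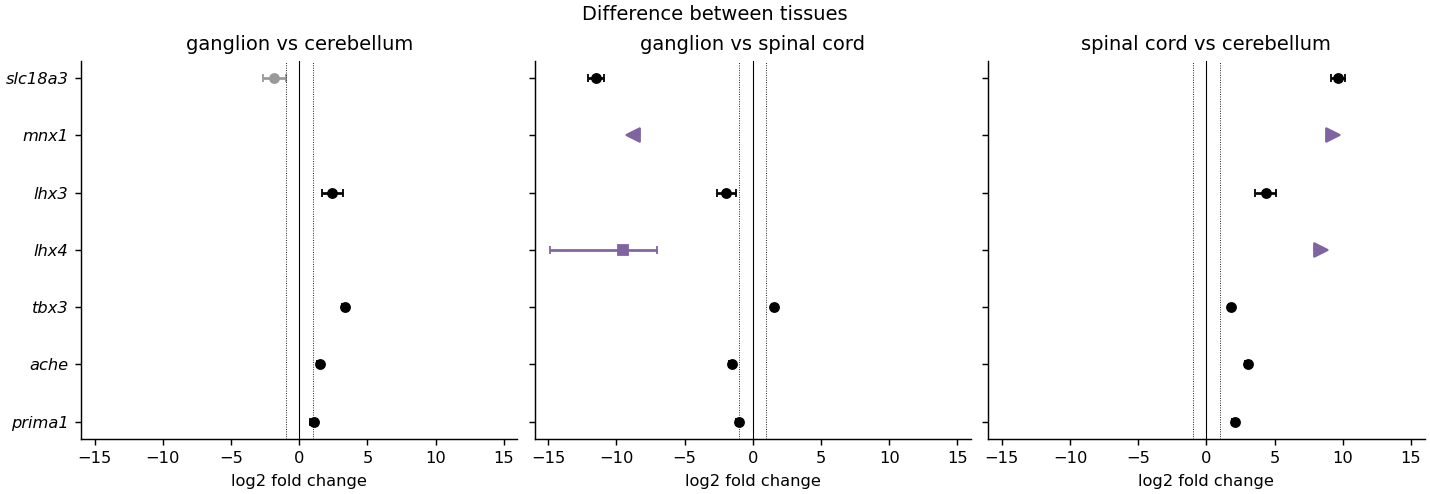
Log2 fold change of each gene in the 3 comparisons, the first tissue named over the second. Black circles are called and the grey circle is not, with bars of 1 approximate standard error. Purple triangles are lower bounds on the size of the change against a tissue with no count, the purple square is a ratio against 1 count with its 95% counting interval, and dotted lines mark a 2-fold change. No symbol is drawn for mnx1 and lhx4 between ganglion and cerebellum, where at most 1 count was found.

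The vesicular transporter gene slc18a3 was abundant in spinal cord and close to 0 in the other tissues. In the spinal cord its lowest, median and highest CPM were 145.8, 239.8 and 367.7, from 18543 counts. In the cerebellum they were 0, 0.196 and 0.861, from 28 counts in 5 of 6 libraries, and in the ganglion 0, 0.033 and 0.47, from 5 counts in 3 libraries. Every spinal cord library was above every other library by more than 100-fold. The log2 fold change was 9.64 ± 0.51 against cerebellum (edgeR adjusted p = 8.3e-12) and -11.48 ± 0.6 for ganglion against spinal cord (edgeR adjusted p = 9.05e-12).

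At this depth the traces of slc18a3 in ganglion and cerebellum could hardly be ordered. Ganglion was at -1.84 ± 0.85 against cerebellum (edgeR adjusted p = 0.0594), and their ranges overlapped. Of the 5 ganglion counts, 3 came from replicate 5. Without that library the gene was called lower in the ganglion at -2.86 (edgeR adjusted p = 0.0151), and it was also called lower without cerebellum replicate 2 (-2.07, adjusted p = 0.0257), 5 (-2.002, adjusted p = 0.0458) or 6 (-2.02, adjusted p = 0.0381).

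By mean TPM slc18a3 was the most abundant of the 7 in the spinal cord, at 200.3 ± 63.95 (SD, n = 6), rank 678 of 28031 genes. Ranked by the excess of log2(TPM + 0.1) in spinal cord over the higher of the other tissues, it was at rank 10, mnx1 at 25 and lhx4 at 53 of 28031.

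The other genes of acetylcholine supply were found in the same tissue. The synthesis enzyme gene chat had 0 counts in all ganglion libraries, 2 counts in cerebellum replicate 1 and 812 counts in spinal cord. It was at least 240.7-fold lower in ganglion than in spinal cord, computed against a floor of 3 counts over the 6 ganglion libraries. Against the 2 cerebellum counts the spinal cord ratio was 501, with a 95% interval of 138.2 to 4144 (Clopper-Pearson, counting error only). The choline transporter gene slc5a7 stood at 49.2 to 115.9 CPM in spinal cord and at 0 to 0.472 CPM in all 12 other libraries. Its log2 fold change was 8.45 ± 0.47 against cerebellum (edgeR adjusted p = 1.37e-11).

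These 3 cholinergic genes differed among themselves in level. Mean spinal cord TPM was 200.3 for slc18a3, 40.4 for slc5a7 and 5.65 for chat. In mammals slc18a3 lies inside the chat gene. Whether the gene models overlap in this annotation was not examined, and the library kit does not mark the strand.

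The homeodomain gene mnx1 was found in the spinal cord alone among these libraries. It had 0 counts in each of the 12 ganglion and cerebellum libraries and 1522 counts in spinal cord, with lowest, median and highest CPM of 6.59, 19.7 and 31.5. The spinal cord was at least 626-fold higher than cerebellum and at least 451.1-fold higher than ganglion, each against a floor of 3 counts over 6 libraries (edgeR adjusted p = 4.11e-07 and 9.64e-07). In the table as a whole 1437 genes had no count in those 12 libraries, 23 of these had a count in all 6 spinal cord libraries, and 3 of the 23, mnx1 included, reached the mean spinal cord level of mnx1, 23.1 TPM.

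Its partner gene in motor neuron identity, lhx4, was nearly as restricted. It had 837 counts in spinal cord, 0 in cerebellum and 1 in ganglion, in replicate 4. Spinal cord CPM was 5.67 at the lowest, 11.7 at the median and 14.4 at the highest. The spinal cord was at least 344.3-fold above cerebellum (edgeR adjusted p = 1.4e-09), and its ratio to the single ganglion count was 744.3, with a 95% interval of 133.2 to 29431.

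The related gene lhx3 was less restricted than lhx4. Its lowest, median and highest CPM were 4.84, 6.55 and 9.54 in spinal cord, 0, 1.83 and 3.25 in ganglion, and 0, 0.125 and 1.21 in cerebellum. Each spinal cord library was above each other library, whereas ganglion and cerebellum overlapped. In 5 of 6 ganglion libraries lhx3 was between 1.18 and 3.25 CPM, and in ganglion replicate 5 it had no count.

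Spinal cord exceeded cerebellum in lhx3 by a log2 fold change of 4.36 ± 0.77 (edgeR adjusted p = 5.76e-05). Ganglion exceeded cerebellum by 2.43 ± 0.75 (adjusted p = 0.00713), with 5 of 6 ganglion libraries above the cerebellum mean, and was below spinal cord by -1.94 ± 0.67 (adjusted p = 0.021). The difference between ganglion and spinal cord was no longer called without ganglion replicate 1 and spinal cord replicates 1, 3 and 5, the libraries highest in the muscle actin gene acta1, where it was -2.11 (adjusted p = 0.074). On the log2(TPM + 1) scale, tested with limma, the ganglion excess over cerebellum was 0.74 and was not called.

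The TPM ratio of lhx3 to lhx4 was 0.58 to 1.06 over the 6 spinal cord libraries, with a median of 0.722. In ganglion replicate 4, the one ganglion library with a count of both, it was 36.0. No test of this ratio was made, because lhx4 had fewer than 10 counts in every ganglion and cerebellum library. The gene pou1f1, a defining gene of pituitary cells and a partner of lhx3 there, had 0 counts in all 18 libraries.

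The T-box gene tbx3 had another order of tissues than the other 6 genes. Its lowest, median and highest CPM were 83.3, 117.6 and 154.5 in ganglion, 31.99, 43.7 and 44.25 in spinal cord, and 9.71, 11.5 and 14.6 in cerebellum. No pair of tissues overlapped in CPM. Ganglion exceeded spinal cord by a log2 fold change of 1.53 ± 0.15 (edgeR adjusted p = 6.71e-08) and cerebellum by 3.32 ± 0.16 (edgeR adjusted p = 1.23e-12). Spinal cord exceeded cerebellum by 1.79 ± 0.15 (edgeR adjusted p = 6.3e-09).

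In TPM, which takes no TMM scaling, the lowest ganglion library, at 21.4 for tbx3, fell among the spinal cord libraries, at 16.6 to 23.2. By mean TPM tbx3 was the most abundant of the 7 in the ganglion, at 47.5 ± 14.6 (SD, n = 6), and ranked 2778 of 28031. Its close relative tbx2 was at 45.7 TPM in ganglion, 5.80 in spinal cord and 3.56 in cerebellum, and was called higher in ganglion than in spinal cord at 3.35 ± 0.24 (edgeR adjusted p = 5.96e-10).

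Acetylcholinesterase RNA was measurable in all 3 tissues. CPM of ache at the lowest, median and highest was 176.1, 374.8 and 467.6 in spinal cord, 92.5, 122.9 and 153.3 in ganglion, and 33.1, 44.35 and 50.8 in cerebellum. The tissues did not overlap in CPM. Spinal cord exceeded cerebellum by a log2 fold change of 3.03 ± 0.2 (edgeR adjusted p = 2.09e-10), and ganglion lay between, 1.49 ± 0.19 above cerebellum (edgeR adjusted p = 1.15e-06) and -1.54 ± 0.19 against spinal cord (edgeR adjusted p = 1.66e-06).

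In TPM the ganglion range for ache, 17.8 to 50.6, overlapped that of cerebellum, 14.4 to 23.6. Tested with limma on log2(TPM + 1), ganglion exceeded cerebellum in ache by 0.82 (adjusted p = 0.00442), under the 2-fold limit, and on log2(TPM + 0.1) by 0.84. The log2(TPM + 1) scale moved the median of all genes to -0.53 in this comparison, from 0.07. Of the genes called on log2(TPM + 1), 30.3% were higher in ganglion, against 57.1% in the count fit. For ganglion against spinal cord the median was -0.38 and the share 22.0% against 45.5%, and for spinal cord against cerebellum -0.15 and 50.6% against 64%.

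Skeletal muscle also carries ache at its synapses, so the levels were set beside the muscle actin gene acta1. The 3 spinal cord libraries highest in acta1, replicates 1, 3 and 5 at 1295, 1119 and 1172 CPM, had ache at 176.1, 321.8 and 384.2 CPM. The other 3, at 106.5 to 295 CPM of acta1, had ache at 365.4 to 467.6 CPM. Ganglion replicate 1, at 3252 CPM of acta1, had ache at 97.7 CPM, within the range of the other ganglion libraries. Without these 4 libraries ache was 3.26 higher in spinal cord than in cerebellum and 1.55 higher in ganglion than in cerebellum on the log2 scale, against 3.03 and 1.49 with them. The part of muscle RNA in the ache levels was not tested.

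The anchor gene prima1 followed the order of ache with smaller differences. Its lowest, median and highest CPM were 11.7, 15.3 and 23.5 in spinal cord, 5.47, 7.78 and 10.8 in ganglion, and 2.78, 3.565 and 5.31 in cerebellum. The tissues did not overlap in CPM, although the lowest ganglion library, at 5.47, and the highest cerebellum library, at 5.31, were close. In TPM ganglion (2.28 to 5.95) and cerebellum (2.08 to 4.24) overlapped. The log2 fold change was 2.08 ± 0.23 for spinal cord over cerebellum (edgeR adjusted p = 2.14e-07), 1.05 ± 0.23 for ganglion over cerebellum (adjusted p = 0.000427) and -1.03 ± 0.22 for ganglion against spinal cord (adjusted p = 0.0007).

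The ganglion values of prima1 lay at the 2-fold limit. The call over cerebellum was lost without ganglion replicate 6 (0.94) and without cerebellum replicate 2 (0.99), 3 (0.98) or 4 (0.98), and it was 0.33 on the log2(TPM + 1) scale and 0.41 on the log2(TPM + 0.1) scale. The call against spinal cord was lost without ganglion replicate 1 (-0.95) or 5 (-0.999), without ganglion replicates 2 and 5 (-0.97) and without spinal cord replicate 4 (-0.90). In these cases the adjusted p stayed under 0.05, except on the TPM scales.

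The ratio of ache to prima1 was higher in spinal cord than in cerebellum. In TPM its lowest, median and highest values were 7.4, 13.0 and 18.2 in spinal cord, 6.22, 10.1 and 10.4 in ganglion, and 5.36, 6.8 and 8.28 in cerebellum. In 5 of 6 spinal cord libraries the ratio was above every ganglion and cerebellum library, and in spinal cord replicate 1 it was 7.4. The mean log2 ratio was 3.64 ± 0.43 (SD, n = 6) in spinal cord, 3.17 ± 0.31 in ganglion and 2.75 ± 0.26 in cerebellum.

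The spinal cord ratio exceeded that of cerebellum by 0.89 on the log2 scale (two-sided exact permutation p = 0.00649, Benjamini-Hochberg adjusted p = 0.0195 over 3 comparisons, 6 of 6 libraries above the cerebellum mean). The ganglion ratio exceeded that of cerebellum by 0.42 (exact permutation p = 0.0346, adjusted p = 0.0519), and paired by replicate number the adjusted p was 0.0469 by an exact sign-flip permutation test. Ganglion was below spinal cord by -0.47 (exact permutation p = 0.0606, adjusted p = 0.0606). That difference was larger without spinal cord replicate 1, the library with the lowest spinal cord ratio. It was then -0.62 and passed the threshold (exact permutation test, adjusted p = 0.00649). In spinal cord ache was below slc18a3 in TPM in all 6 libraries, at a ratio of 0.549 to 0.96.

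**Figure D3:**
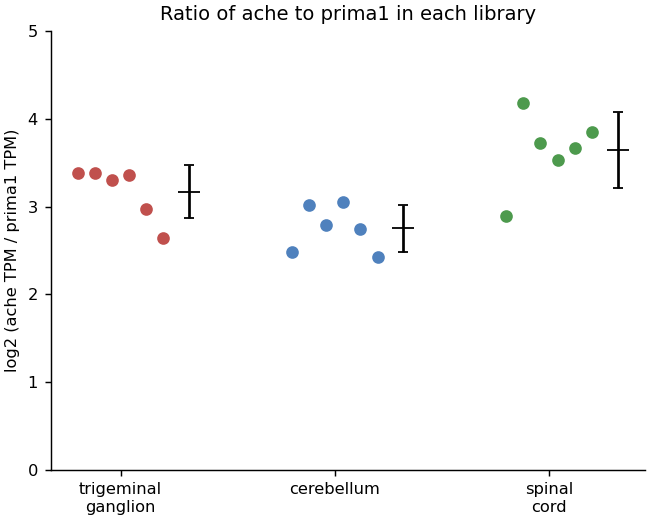
Log2 ratio of ache TPM to prima1 TPM, 1 point per library, with the mean and SD of each tissue (n = 6) at its right. Spinal cord lies highest, at a mean of 3.64, except for replicate 1 at 2.89.

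Within the spinal cord the genes varied unevenly between libraries. Replicate 4 was highest in slc18a3, mnx1, lhx3, ache and prima1, and replicate 1 was lowest in slc18a3, mnx1, lhx3, lhx4 and ache. In replicate 1 mnx1 was at 0.32 of the spinal cord mean, lhx4 at 0.49, ache at 0.5, slc18a3 at 0.58 and lhx3 at 0.7. The motor neuron gene chodl was at 0.32, slc5a7 at 0.72 and uts2b at 0.72 of their means in replicate 1, though uts2b was lowest in replicate 6, at 0.70. In replicate 1 prima1 was at 0.86, chat at 0.92, nkx6-1 at 1.03 and tbx3 at 1.05.

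The spread differed from gene to gene. The ratio of the highest to the lowest spinal cord library was 4.78 for mnx1, 2.66 for ache, 2.54 for lhx4, 2.52 for slc18a3, 2.01 for prima1 and 1.97 for lhx3. Of the other genes followed here, chodl had a ratio of 4.45, slc5a7 2.35, uts2b 2.28 and nkx6-1 2.04. The ratio was 1.38 for tbx3, 1.42 for the position gene hoxb9 and 1.16 for chat, which ran from 10.3 to 11.9 CPM. Replicate 1 was also the spinal cord library highest in acta1, and its part in the low values was not tested. In replicates 3 and 5, next in acta1, mnx1 was at 0.99 and 0.87 of the mean and slc18a3 at 0.99 and 0.77. There lhx3 was at 0.99 and 0.90, lhx4 at 1.05 and 0.98, ache at 0.91 and 1.09 and chodl at 0.81 and 1.17. The gene slc5a7 was at 49.2, 55.7 and 49.9 CPM in replicates 1, 3 and 5 and at 70.1 to 115.9 CPM in the others. Even in replicate 1 mnx1 was at 6.59 CPM, against 0 in all libraries of the other tissues.

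**Figure D4:**
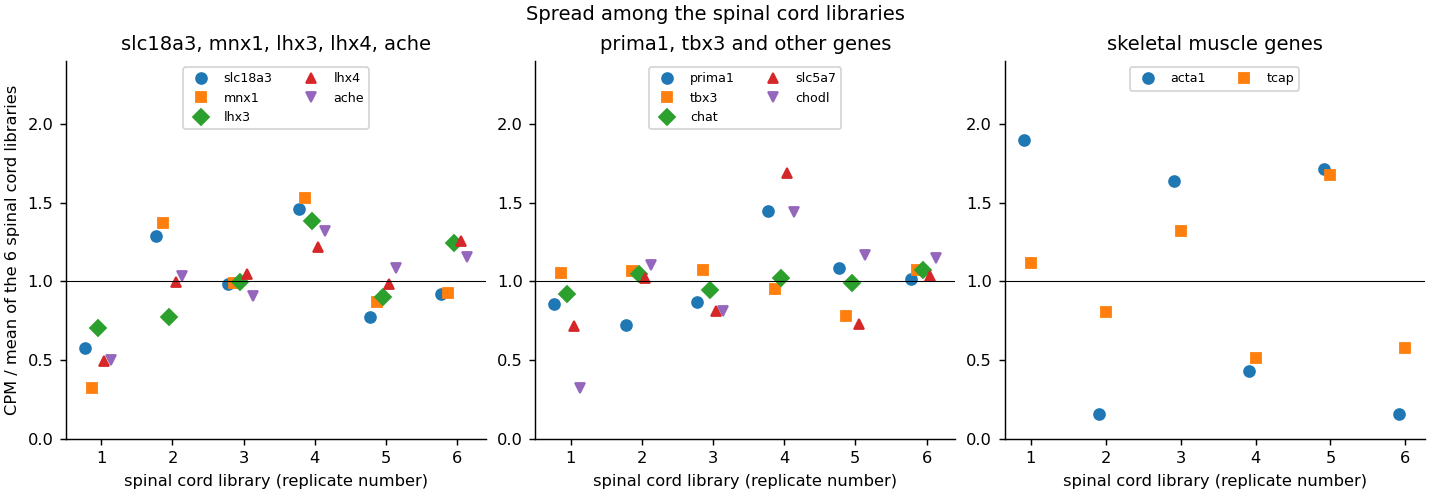
CPM of each gene in each spinal cord library divided by the mean of the 6 libraries, 1 point per library, with a line at 1. Replicate 1 is low in all genes of the left panel, from 0.32 for mnx1 to 0.7 for lhx3, while chat and tbx3 are near 1 there. The muscle gene acta1 is high in replicates 1, 3 and 5.

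Genes of acetylcholine handling were taken from a list of 15 symbols, of which 11 were in the table and 10 were tested. The list includes slc18a3, ache and prima1, so its counts and medians partly repeat the results above. In spinal cord against cerebellum 7 were higher, 1 lower and 2 not called, beside 28.9% and 16.3% of all genes higher and lower. The median log2 fold change was 3.44, beside 0.08 over all genes. In ganglion against spinal cord 1 was higher and 7 lower (median -2.07), beside 14.5% and 17.3%. In ganglion against cerebellum 4 were higher, 1 lower and 5 not called (median 0.61), beside 29.6% and 22.3%. Tested with limma on log2(TPM + 1), ganglion had 0 of them higher and 1 lower than cerebellum. Without ganglion replicates 2 and 5 the ganglion had 4 higher and 2 lower than cerebellum, and 0 higher and 6 lower than spinal cord.

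Besides the genes above, acly, which makes cytosolic acetyl-CoA, was 4.11 ± 0.36 higher in spinal cord than in cerebellum (edgeR adjusted p = 7.76e-09). Butyrylcholinesterase (bche), a relative of ache, was 3.84 ± 0.48 higher (adjusted p = 1.12e-06) at only 2.93 TPM. The choline transporter-like genes went otherwise: slc44a5 was lower in spinal cord than in cerebellum by -2.44 ± 0.43 (adjusted p = 6.67e-05), and slc44a1 was 1.88 ± 0.38 higher in ganglion than in spinal cord (adjusted p = 0.000385). The ganglion libraries were uneven in slc44a1, at 22.0, 26.1 and 119.8 CPM at the lowest, median and highest, against at most 18.4 CPM in spinal cord. It was not called higher without ganglion replicates 2 and 5, nor with limma on log2(TPM + 1). Choline kinase (chka) was not called in any comparison and stood at 46.8 TPM in ganglion, 65.8 in cerebellum and 77.4 in spinal cord.

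Of 25 motor neuron identity factors, 19 were in the table and 16 were tested. The list includes mnx1, lhx3, lhx4 and tbx3, so its counts and medians partly repeat the results above. In spinal cord against cerebellum 10 were higher, 3 lower and 3 not called, with a median of 1.92. Over all genes 28.9% were higher and 16.3% lower there. In ganglion against spinal cord 3 were higher and 7 lower (median -0.29), beside 14.5% and 17.3%. In ganglion against cerebellum 4 were higher and 5 lower, beside 29.6% and 22.3%. The median there was 0.38, or 0 with genes of no count at their bound. The list is not specific to motor neurons. Its largest spinal cord levels were those of nkx6-2, at 257.1 TPM, and olig2, at 219.1 TPM, both also genes of oligodendrocytes.

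The LIM homeodomain genes isl1 and isl2, needed by motor and sensory neurons alike, were ganglion genes here. isl1 was at 176.6 TPM in ganglion, 3.93 in spinal cord and 0 in cerebellum, and isl2 at 267.5, 3.66 and 0. They were thus 5.92 ± 0.36 and 6.57 ± 0.21 higher in ganglion than in spinal cord (edgeR adjusted p = 3.01e-09 and 4.21e-12), opposite in direction to mnx1, lhx3 and lhx4. The progenitor and motor neuron factor nkx6-1 went with the last group, at 25.6 TPM in spinal cord, 0.329 in cerebellum and 0.065 in ganglion. etv1 and onecut2 were lower in spinal cord than in cerebellum, by -4.15 ± 0.26 and -1.81 ± 0.46.

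**Figure D5:**
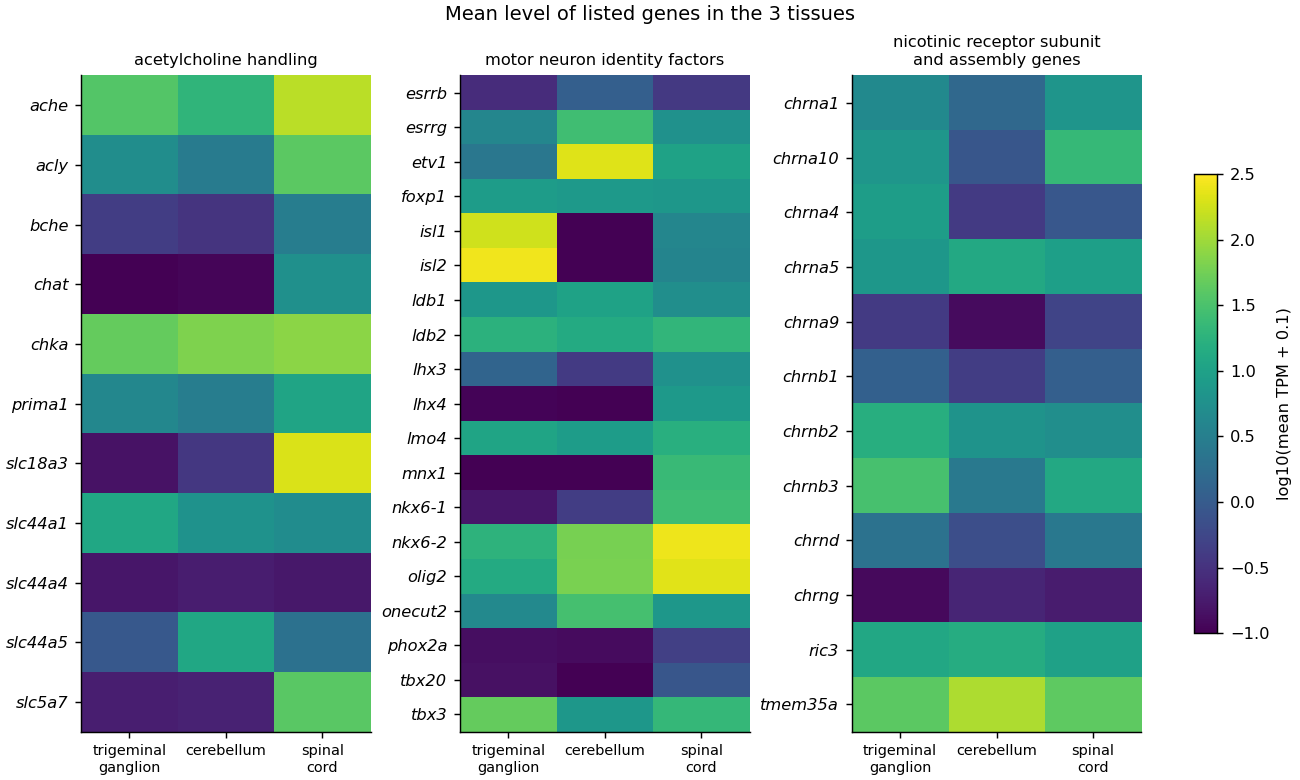
Mean level of the listed genes in the 3 tissues as log10(mean TPM + 0.1), from dark for low to yellow for high. In the left panel chat, slc5a7 and slc18a3 are bright in spinal cord alone, and in the middle panel isl1 and isl2 are brightest in ganglion while mnx1, lhx4 and nkx6-1 are brightest in spinal cord.

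Genes listed as effectors of motor neurons were mixed: of 9 tested, 7 were higher and 1 lower in spinal cord than in cerebellum (median 3.78). Over all genes 28.9% were higher and 16.3% lower there. In ganglion 3 were higher and 3 lower than in spinal cord (median 0.43), beside 14.5% and 17.3% of all genes. In ganglion against cerebellum 6 were higher and 0 lower (median 3.13, or 2.21 at the bound), beside 29.6% and 22.3%. uts2b, a gene of the urotensin II peptide family, had 13442 counts in spinal cord (470.3 ± 167.9 TPM, SD, n = 6), 5 in ganglion and 0 in cerebellum, so spinal cord was at least 5529-fold above cerebellum. Which spinal cord cells carried uts2b was not tested. chodl, a marker of fast motor neurons in mouse, was 8.25 ± 0.56 higher in spinal cord than in cerebellum (edgeR adjusted p = 2.55e-10). In contrast prph, an intermediate filament gene of motor and sensory neurons, was 3.87 ± 0.31 higher in ganglion than in spinal cord (edgeR adjusted p = 3.37e-09).

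Among receptor genes the pattern of slc18a3 was not general. Of 10 tested nicotinic subunit and assembly genes 4 were higher and 1 lower in spinal cord than in cerebellum (median 1.76). Over all genes 28.9% were higher and 16.3% lower there. In ganglion 3 were higher and 1 lower than in spinal cord (median 0.35), beside 14.5% and 17.3% of all genes. In ganglion against cerebellum 5 were higher and 0 lower (median 2.17), beside 29.6% and 22.3% of all genes. Without ganglion replicates 2 and 5 these were 7 and 1. On the log2(TPM + 1) scale 2 of 9 tested were higher and 1 lower in spinal cord than in cerebellum. chrna10 was 4.98 ± 0.52 higher in spinal cord than in cerebellum (edgeR adjusted p = 8.52e-08), whereas the neuronal subunit genes chrna4 and chrnb2 were highest in ganglion, at 8.74 and 15.7 TPM. The muscle subunit genes chrna1 and chrnd were not called in any comparison, at 6.55 ± 11.8 and 2.46 ± 1.56 TPM (SD, n = 6) in spinal cord. Of the 963 spinal cord counts of chrna1, 757 came from 1 library. A further muscle subunit gene, chrnb1, was called higher in ganglion than in cerebellum at 2.23 ± 0.67 (edgeR adjusted p = 0.00617). Its mean was only 1.10 TPM in ganglion, beside 1.06 in spinal cord and 0.33 in cerebellum. Between ganglion and spinal cord chrnb1 was not called. The muscarinic receptor gene chrm3 was 4.18 ± 0.55 higher in spinal cord than in cerebellum (edgeR adjusted p = 2.11e-06).

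Since lhx3 and lhx4 also act in V2 interneurons, factors of V2 and other interneurons were read beside them. The list is not specific to V2 or ventral cells. Its highest cerebellum levels were those of pax2, skor1 and lhx1, at 451.6, 277.5 and 195 TPM. Of 13 tested, 6 were higher and 3 lower in spinal cord than in cerebellum (median 0.96), beside 28.9% and 16.3% of all genes. In ganglion 1 was higher and 9 lower than in spinal cord (median -6.30, or -4.53 with genes of no count at their bound), beside 14.5% and 17.3%, and 4 were higher and 7 lower than in cerebellum (median -4.57), beside 29.6% and 22.3%. sox14 shared with mnx1 a count of 0 in all ganglion and cerebellum libraries and had 177 counts in spinal cord.

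Finally, for each gene the 3 others most like it were found by Pearson's r of log2(TPM + 0.1) over the 18 libraries, among 8696 or 8697 genes with a symbol and sufficient counts. The libraries form 3 tissue groups, so r reflects mostly the tissue means and is given as a description. The nearest genes were s100b (0.979), hoxb8 (0.978) and glra1 (0.977) for slc18a3. They were hoxb8, glra1 and prrt2 for mnx1 (0.99, 0.988 and 0.985) and for lhx4 (0.993, 0.988 and 0.987). For lhx3 no gene reached 0.95, and the nearest were cpne8, rai14 and smad9 (0.934, 0.933 and 0.931). For tbx3 they were uchl1, trpa1 and foxd3 (0.98, 0.974 and 0.972), all highest in ganglion. For ache they were layn, sh3glb2 and map1a (0.983, 0.973 and 0.972), and for prima1 map7, mboat1 and slc17a6 (0.953, 0.952 and 0.946).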

How the data were processed

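Raw counts were deposited for every gene in each library, per the file headers. Per the submitters' processing notes, the tools were featureCounts, Subread 2.0.1, STAR 2.7.7a, Trimmomatic 0.39 and CASAVA 1.8.2. The same deposited table gives TPM values, per the file headers. Total RNA came from a TRIzol extraction and went into a low-input library kit, per the labels' protocols. Genome build, annotation and strand setting are unknown (not given in the sources used here), and no positions or sequences are printed.

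Counts were analysed in R 4.3.3 with edgeR 4.0.16: filterByExpr, TMM scaling and the quasi-likelihood F-test on all 18 libraries by tissue, with Benjamini-Hochberg adjustment over 20691 genes. The approximate standard error is the absolute log2 fold change divided by the square root of F. Alternatives were DESeq2 1.42.0, its size factors in edgeR, no filter, limma 3.58.1 on log2(TPM + 1) and log2(TPM + 0.1) for genes of mean TPM of at least 1, the replicate block, only the tissues compared, and libraries left out. Ratios were tested with scipy 1.17.1, and figures drawn with matplotlib 3.10.9 in Python 3.11.15. The test was tried on simulated counts.

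TMM factors were 0.611 to 1.06 in ganglion, 1.06 to 1.12 in cerebellum and 0.998 to 1.05 in spinal cord. No pair of libraries within a tissue agreed within sampling noise: chi-square per degree of freedom was at least 12.8 in each of 45 pairs. The labels number the libraries 1 to 6 in each tissue without saying that a number is a fish. After removing tissue means, same-number libraries correlated across genes at 0.124 to 0.403 between ganglion and spinal cord, 0.216 to 0.404 between spinal cord and cerebellum and 0.0759 to 0.297 between ganglion and cerebellum (above 0.1 in 4 of 6 pairs). Between ganglion and cerebellum the same-number library was the best match for 6 of 6 libraries in either direction. It was so for 6 of 6 in either direction between spinal cord and cerebellum. Between ganglion and spinal cord it was so for 5 of 6 ganglion and 6 of 6 spinal cord libraries. The numbers may therefore pair all 3 tissues, a pairing that comes from the data. The main edgeR fit and the main ratio tests did not use it and took the libraries as independent, although per the labels they come from 6 fish. Pairing by number entered only as the replicate block among the alternatives. Intervals and floors cover counting error only.

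The members and lists were chosen with earlier results of these data known, and so were the left-out libraries. The rule for naming genes took all members, the genes of acetylcholine handling and motor neuron identity, up to 3 called genes per other list and comparison by size of change with the most abundant uncalled one, and the 3 most alike genes of each member. Not every gene it allows is described. The genes tbx2, mb, tnnt1, ryr1, hoxb9, pou1f1, chrnb1, ntrk2, calb1, skor2 and cbln1 were named after their values were seen. Some genes of the lists are not reported here.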

Additional observations from a re-analysis of the deposited data

Results flagged for a closer look

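Of 21 groups of 6 libraries, each gene in each tissue, 18 had a count, and 4 of these held a library that stood apart by Dixon's criterion (the gap to the nearest library over the whole range). For values spread like measurement error chance flags about 1 in 20 groups. That rate does not hold near 0 counts, where the last 3 of the groups below lie and where a single count among zeros always stands apart. In spinal cord, lhx4 was at 5.67 CPM in replicate 1, below 11.3 to 14.4 CPM in the others. In cerebellum, lhx3 was at 1.21 CPM in replicate 4, above 0 to 0.36 CPM in the others. In ganglion, slc18a3 was at 0.47 CPM in replicate 5, from 3 counts, above 0 to 0.0841 CPM in the others. Also in ganglion, lhx4 was at 0.0812 CPM in replicate 4, a single count, and at 0 in the others.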

How the results depend on the processing

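Of 21 pairs of gene and comparison, 15 kept their call under all alternatives that could be fitted. The direction turned in 0 of 438 fits, where a turn was counted only if the main or the alternative fit called the gene. Both figures include mnx1 and lhx4 between ganglion and cerebellum, with 20 fits each. There mnx1 had 0 counts and lhx4 had 1, so neither a call nor a turn was to be had. The number of the 7 genes called between ganglion and cerebellum fell from 4 to 1 (tbx3) on the log2(TPM + 1) scale and was 3 to 5 with a library left out. It was 6 to 7 between ganglion and spinal cord and 7 between spinal cord and cerebellum. With the replicate block the counts stayed at 4, 7 and 7, and the block changed no call of a gene. For the ratio of ache to prima1, ganglion over cerebellum was 0.42 with the replicate block (exact sign-flip adjusted p = 0.0469) and 0.36 to 0.53 with a library left out. The smallest unadjusted p that 6 pairs can give in the sign-flip test is 0.0312. Unpaired, ganglion over cerebellum passed the threshold without ganglion replicate 6, cerebellum replicate 2 or cerebellum replicate 4. Ganglion against spinal cord was -0.62 to -0.36 with a library left out. Spinal cord over cerebellum was 0.78 to 1.04 with a library left out and 1.11 without the 4 libraries highest in acta1 (exact permutation adjusted p = 0.0536), where the smallest p that 3 against 6 libraries can give is 0.0238. The cause of the other changes was not tested. The ratios of lhx3 to lhx4 and of ache to slc18a3 had under 10 counts in some libraries and were not tested. Depth limits slc18a3, lhx3 and lhx4 in ganglion and cerebellum.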
